A study of Mus musculus with 12 samples.

Results

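Described here are 35 genes of autophagy and the lysosome in mouse liver, from the kinase that starts an autophagosome to the proteases that digest its cargo. They were chosen by gene symbol from a list of the pathway's parts, with earlier results of these data known. The shares of members set beside those of all genes are thus descriptions and not tests. Symbols were matched to the Ensembl identifiers of the deposited table, and all 35 were found among its 16346 genes. Liver RNA was sequenced from C57BL6J mice aged 12 weeks, in 6 groups of 2 mice, to ask how sugar feeding and the loss of MED13 in hepatocytes alter liver gene expression. MED13 is a subunit of Mediator, a coactivator of transcription, and belongs to its detachable kinase module. Control mice were *Med13*fl/fl, with *Med13* flanked by recombination sites but intact. MED13-LKO mice carried in addition the *Alb*-Cre transgene, whose albumin promoter is active in hepatocytes. Each genotype had 2 mice fasted overnight for 16 h, 2 mice refed after such a fast for 4 h with normal chow and 30% sucrose in the drinking water, and 2 mice refed in the same way with 30% fructose in the water. Per the study's methods the fed mice were killed later in the day than the fasted mice, so feeding and time of day cannot be told apart. No sequenced group was refed chow with plain water, so effects of the sugar and of the chow cannot be told apart either. Sugar feeding below means chow and sugar water together. The labels do not say whether mice were littermates, and each of the 12 libraries is taken as 1 mouse.

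Autophagy delivers cytoplasm, organelles and stored lipid to the lysosome. A kinase complex (ULK) and a lipid kinase complex (class III PI3K) start a cup-shaped membrane, lipid transfer proteins and ATG9 vesicles enlarge it, and conjugation enzymes attach LC3 and GABARAP proteins to it, which receptors such as p62 bind together with cargo. In liver the pathway is known to be active in fasting and restrained by insulin and amino acids after a meal, through the mTORC1 kinase and through transcription factors of the TFEB/TFE3 and FOXO families.

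TFEB and TFE3 bind E-box sequences (CACGTG, often within TCACGTGA) that are common before the starts of lysosomal genes. The bases before the starts of 6 members are shown because 4 of them (*Lamp1*, *Mcoln1*, *Ctsd*, *Atg3*) held more than 1 such letter run, and the other 2 (*Depp1*, *Gabarapl1*) had the largest feeding differences and held none. Each run is the 250 bases upstream of a RefSeq start in GRCm38.p6, written 5′ to 3′ on the gene's strand, with E-boxes in capitals and the longer TCACGTGA in capitals where it occurred.

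Lamp1 promoter, chr8:13158911-13159160 (+): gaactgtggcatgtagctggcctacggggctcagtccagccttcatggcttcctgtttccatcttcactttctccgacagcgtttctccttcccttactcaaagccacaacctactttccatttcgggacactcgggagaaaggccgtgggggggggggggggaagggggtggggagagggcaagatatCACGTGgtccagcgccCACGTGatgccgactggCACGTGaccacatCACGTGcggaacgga

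Mcoln1 promoter, chr8:3500269-3500518 (+): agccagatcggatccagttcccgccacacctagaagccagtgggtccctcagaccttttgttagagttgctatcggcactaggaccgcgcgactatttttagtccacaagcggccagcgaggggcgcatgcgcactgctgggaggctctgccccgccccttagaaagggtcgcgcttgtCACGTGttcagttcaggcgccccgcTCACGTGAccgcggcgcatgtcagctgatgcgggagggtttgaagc

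Ctsd promoter, chr7:142387828-142388077 (-): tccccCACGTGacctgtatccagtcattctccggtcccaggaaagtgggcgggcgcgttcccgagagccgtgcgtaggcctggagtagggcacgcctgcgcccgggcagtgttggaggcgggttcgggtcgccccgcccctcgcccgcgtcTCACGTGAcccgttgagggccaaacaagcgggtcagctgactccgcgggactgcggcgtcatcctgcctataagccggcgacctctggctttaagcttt

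Atg3 promoter, chr16:45158579-45158828 (+): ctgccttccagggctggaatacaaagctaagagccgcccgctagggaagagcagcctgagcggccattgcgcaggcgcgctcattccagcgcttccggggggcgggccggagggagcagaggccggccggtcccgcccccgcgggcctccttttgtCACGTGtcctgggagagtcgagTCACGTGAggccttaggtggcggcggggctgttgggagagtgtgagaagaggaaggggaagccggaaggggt

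Depp1 promoter, chr6:116650434-116650683 (+): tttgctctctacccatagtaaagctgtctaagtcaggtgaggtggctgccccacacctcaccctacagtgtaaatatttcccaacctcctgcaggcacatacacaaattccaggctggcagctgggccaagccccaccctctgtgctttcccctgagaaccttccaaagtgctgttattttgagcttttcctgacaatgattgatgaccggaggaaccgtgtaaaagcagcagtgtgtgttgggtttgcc

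Gabarapl1 promoter, chr6:129532942-129533191 (+): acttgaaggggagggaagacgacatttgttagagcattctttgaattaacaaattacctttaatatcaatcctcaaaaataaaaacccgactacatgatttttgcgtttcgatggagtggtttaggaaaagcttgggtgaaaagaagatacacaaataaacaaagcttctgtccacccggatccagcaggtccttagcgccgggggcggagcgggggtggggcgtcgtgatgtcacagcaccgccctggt

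RefSeq windows were found for 28 of the 35 members (32 windows, since some genes have several starts), and 8 of these 28 members (28.6%) held CACGTG (*Atg3*, *Atg5*, *Atg7*, *Bnip3*, *Ctsd*, *Ctsl*, *Lamp1* and *Mcoln1*), against 6.86% of all 27025 genes with a window of the same length. Counted by window, that is 8 of the members' 32 and 6.02% of all 32851. In *Lamp1*, a lysosomal membrane glycoprotein, there were 4 E-boxes, which began 61, 45, 28 and 15 bases before the start. TCACGTGA, which contains CACGTG and reads the same on both strands, was found for 3 of the 28 members, *Atg3*, *Ctsd* and *Mcoln1*, against 0.907% of all genes. The exact run GTAAACA, a form of the FOXO motif, was searched on both strands and found for 0 of the 28 members and 3.54% of all genes. Other forms of the motif were not searched, so this count does not show that the windows lack FOXO sites. These matches describe letters and not binding. A RefSeq start need not be the gene's outermost annotated start. The windows of *Atg7* (chr6:114670846-114671095) and *Ctsl* (chr13:64370521-64370770) lay wholly within the annotated genes (chr6:114643097-114860614 and chr13:64359337-64370890). The TCACGTGA runs of *Ctsd* and *Mcoln1* lay within the annotated genes too, as did windows of some members without an E-box. Of the 8 members with an E-box, 3 had lower RNA after feeding by the tests given below, and 5 had lower RNA in mice labelled MED13-LKO. Of the 20 members whose windows held none, 8 and 7 did. Over all genes tested, 11% were lower after feeding and 13.2% were lower in mice labelled MED13-LKO. Whether E-boxes go with either difference was not tested.

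Values are the authors' normalized read counts per gene: reads were assigned to transcripts and scaled by 1 factor per library. Differences are log2 fold changes of the normalized count plus 1, with their standard error (SE), from limma, which fitted the 6 group means to all 12 libraries. A gene was called at a Benjamini-Hochberg adjusted p under 0.05 over the 12366 genes whose normalized counts averaged 10 or more, and all 35 members passed that filter. The normalized counts summed to between 21062211 and 24152885 in control libraries and to between 17309215 and 18738563 in the libraries labelled MED13-LKO. These sums are not depths in reads, which could only be estimated, from the step between low values of genes with 1 annotated transcript. The estimates were 18763662 to 21413768 reads on genes in control libraries and 16086631 to 24231158 in the others, and they overlapped. In whole liver, fewer cells of a type and less RNA per cell cannot be told apart.

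The libraries were first compared with their labels. At the protein level, the study reports by Western blot that MED13 and MED12 were almost absent from MED13-LKO livers. The RNA value of the *Med13* gene was not lower under the knockout label. It stood at 578 to 796 normalized counts in the 6 control libraries and at 646 to 1055 in the other 6, a difference of 0.22 ± 0.11 (log2, SE; limma, adjusted p = 0.201). The value counts the whole gene, so RNA from which only the floxed part was removed would still be counted, and the position of that part is not given in the sources used here. Other genes separated the genotypes. *Nnt*, which is partly deleted in the C57BL/6J substrain, was 529 to 1004 in control libraries and 2617 to 3687 in the others, *Cyp2a4*, which is higher in female than male liver, 11.2 to 39.6 against 2256 to 6576, and *Mup7*, which is higher in male liver, 111473 to 482992 against 649 to 4685. The Y-linked *Ddx3y* was between 1450.4 and 1865 in all 12. Marker sums of hepatocytes (6 genes) were 2163220 to 2901850 in control and 1630660 to 2022110 in the libraries labelled MED13-LKO, those of Kupffer cells (9 genes) 4067 to 5706 and 5227 to 6970, and those of sinusoidal endothelial cells (7 genes) 4480 to 5197 and 5354 to 6890. No marker of these 3 cell types was at 0 in any library. The part of these differences in the genotype results below was not tested, and substrain, sex-biased expression and genotype cannot be told apart in this design.

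By level, taken as the normalized count per kilobase of the longest annotated transcript, RNA of the lysosomal membrane proteins led the members: *Lamp1* had 4989 and *Lamp2* 4396, followed by the mitophagy receptor *Bnip3* with 4357 and the protease *Ctsd* with 3106. At the other end were *Atg2a* with 52.1, *Tfe3* with 59.0 and *Atg2b* with 71.4. The order depends on the length used, and the transcripts made in liver may be shorter than the longest annotated ones. *Ctsl* and *Ctsb*, with longest transcripts of 6168 and 4743 bases, had mean normalized counts of 8454 and 9489 but 1371 and 2001 per kilobase. Not every lysosomal gene was high, the channel gene *Mcoln1* having 186, and *Bnip3* and *Ctsd* share reads with other genes (57% and 33.2% of their 31-base runs).

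**Figure D1:**
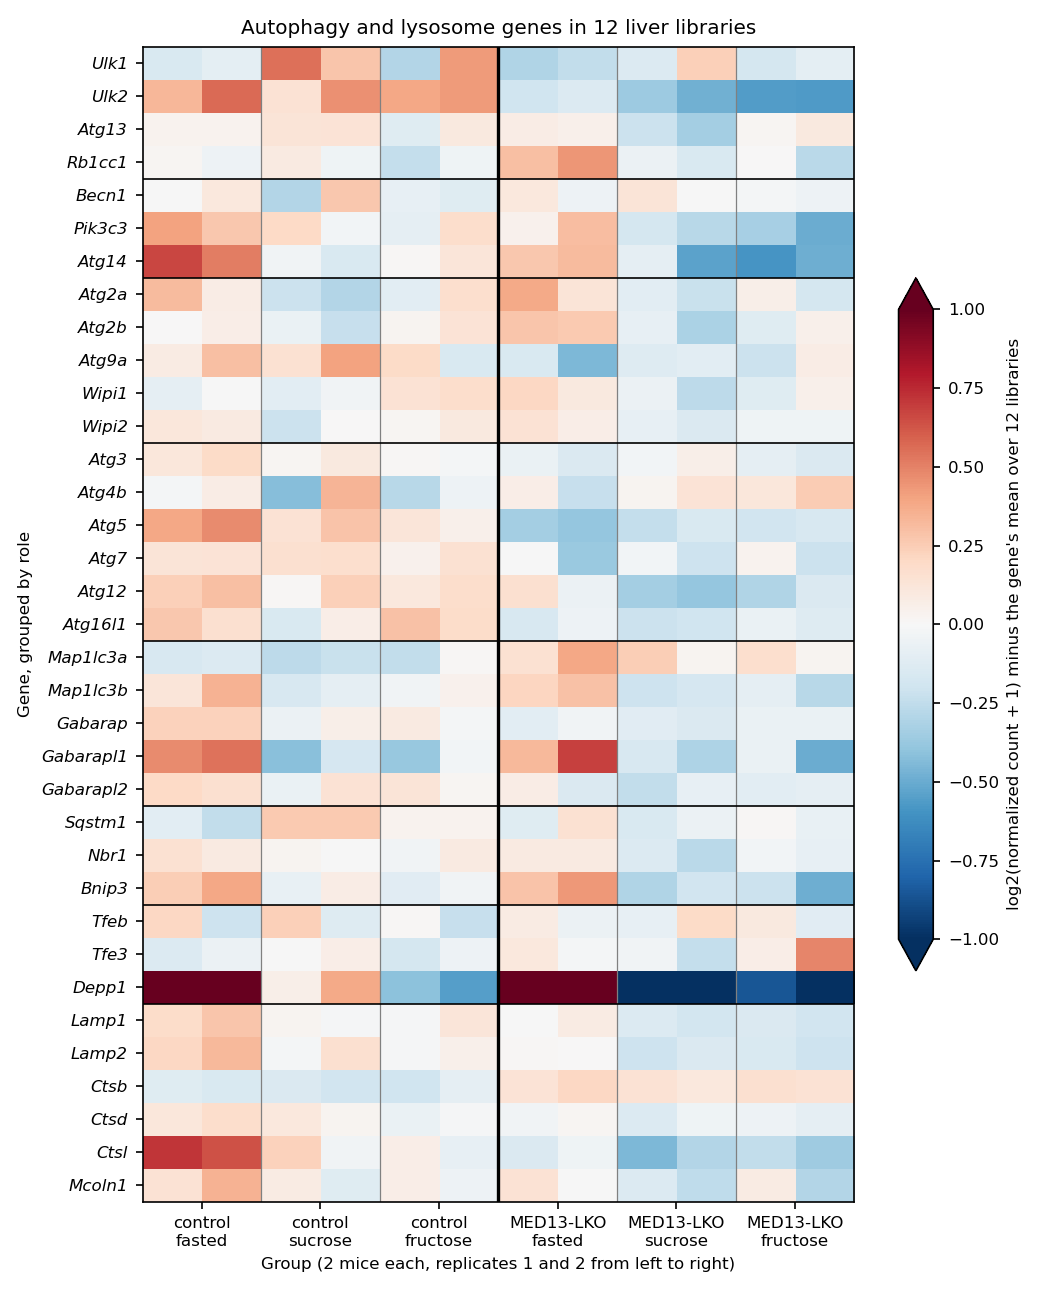
Each row is 1 of the 35 genes, grouped by role, and each column 1 liver library; colour gives log2(normalized count + 1) minus the gene's mean over the 12 libraries, clipped at 1 in either direction. *Depp1* is off the colour scale in the 4 fasted libraries, *Gabarapl1* and *Atg14* are red in the fasted columns, and *Ulk2* and *Atg5* change at the line between the genotypes.

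Sugar feeding went with lower RNA of 14 of the 35 members (40%) and higher RNA of none, when the difference from fasting was averaged over both sugars and both genotypes. Over all genes tested, 21.8% were called in this comparison and 11% were lower. The median log2 difference was -0.12 over the members and -0.01 over all genes tested, and 29 of the 35 members were below 0. The 14 came from every step of the pathway, from *Rb1cc1* to *Ctsl*. In 5 of them (*Depp1*, *Gabarapl1*, *Atg14*, *Bnip3* and *Map1lc3b*; 14.3% of the members) all 8 fed libraries were below all 4 fasted ones, which was so for 4.79% of all genes. Within control mice 16 members had no overlap between fed and fasted mice, 15 of them lower after feeding, and within mice labelled MED13-LKO 20 had none, 18 of them lower, against 34.5% and 36.7% of all genes. Of the 6 hepatocyte markers 3 were also called lower after feeding, as were 1 of the 7 endothelial, 1 of the 7 stellate and all 3 erythroid markers, while 1 stellate marker was higher. The erythroid sum was 6249 to 9420 in fasted and 2959.7 to 7434 in fed mice, with a median log2 difference of -0.58 over its 3 genes. The part of these markers in the members' differences was not tested.

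*Depp1*, a FOXO-induced regulator of autophagy encoded at chr6:116650609-116652794 (GRCm38, also called mm10), differed most. Its normalized count was 1209.8 and 1002 in fasted control mice, 247 and 308 after sucrose and 178 and 162 after fructose. In mice labelled MED13-LKO it was 499 and 491 when fasted, 53.1 and 71.8 after sucrose and 131 and 93.9 after fructose. All 8 fed values were thus below the lowest fasted value of either genotype, and the averaged difference was -2.45 ± 0.12 (log2, SE; limma, adjusted p = 7.4e-06). It was called in each of the 4 single feeding comparisons: by -1.99 ± 0.20 for sucrose and -2.69 ± 0.20 for fructose in control mice, and by -2.98 ± 0.20 and -2.15 ± 0.20 in mice labelled MED13-LKO.

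**Figure D2:**
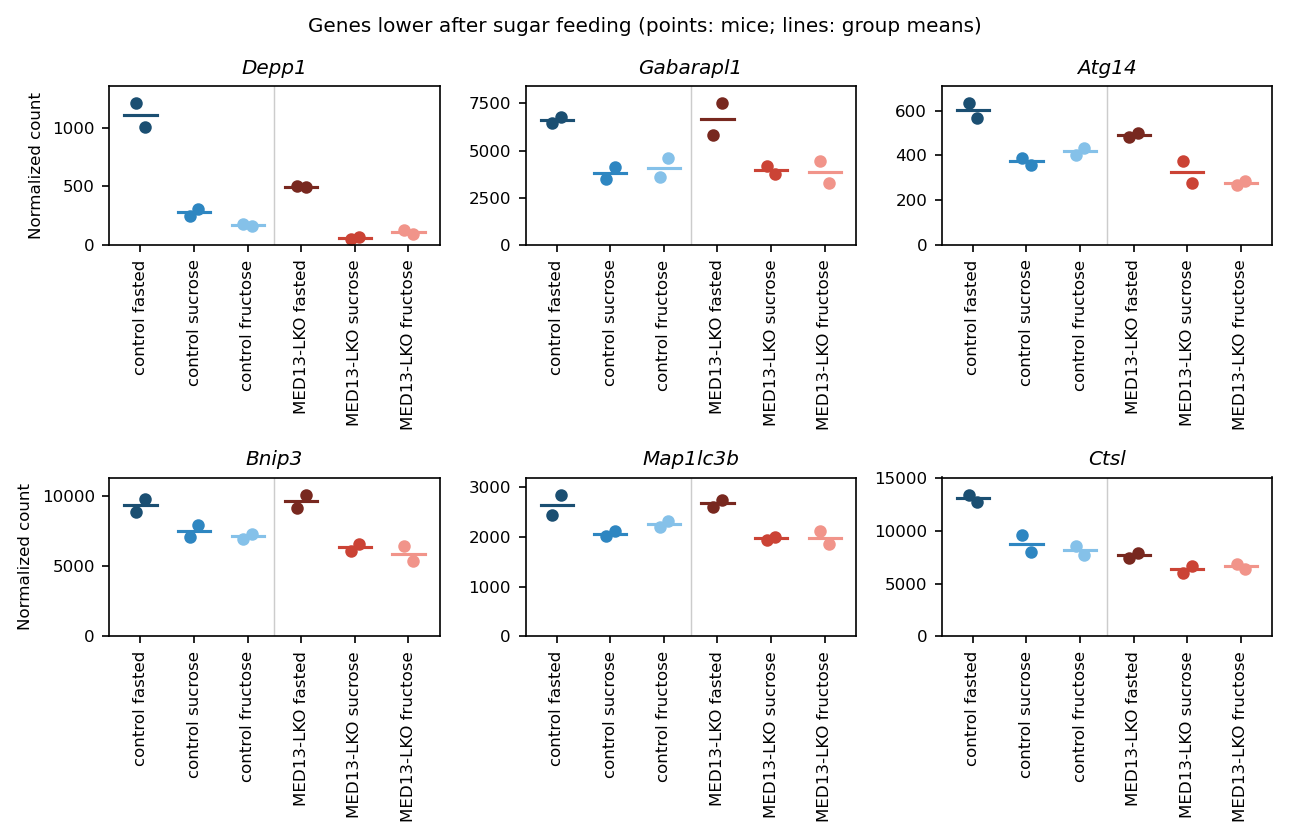
Normalized count in each mouse (points) and group mean (lines) of 6 genes that were lower after sugar feeding; each vertical axis starts at 0. In the panels of *Depp1*, *Gabarapl1*, *Atg14*, *Bnip3* and *Map1lc3b* all fed points lie below all fasted points, and in that of *Ctsl* this holds within each genotype.

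*Gabarapl1* (chr6:129533160-129542346) encodes an LC3-like protein of the GABARAP branch that is attached to autophagosomes. It stood at 6482 and 6807 in fasted control mice and at 5846 and 7522 in fasted mice labelled MED13-LKO. The fed control mice had 3496 and 4155 after sucrose and 3589.8 and 4585 after fructose, and the fed mice labelled MED13-LKO 4169.8 and 3777, and 4468 and 3308. The fall, -0.76 ± 0.11 averaged (adjusted p = 0.0011), was called in all 4 single feeding comparisons and lay between -0.80 and -0.71 in them. The fasted and the fed values did not overlap, and the genotype difference was -0.01 ± 0.10. About 25.2% of the gene's 31-base runs also occur in other genes, chiefly 1700101I11Rik, so its reads may be shared.

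*Map1lc3b*, the LC3 form most used as a marker of autophagosomes, was lower by a smaller amount. It was 2437 and 2846 in fasted, 2010 and 2108 in sucrose-fed and 2187 and 2309.7 in fructose-fed control mice. In mice labelled MED13-LKO the values were 2599.9 and 2743, 1941 and 1999, and 2106 and 1854. The difference was -0.36 ± 0.06 (adjusted p = 0.0021), with no overlap between fed and fasted libraries. The other members of the family showed no feeding difference past the threshold: *Map1lc3a* differed by -0.09 ± 0.07, *Gabarap* by -0.12 ± 0.04 and *Gabarapl2* by -0.11 ± 0.07.

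In the class III PI3K complex, which makes the lipid PI3P on the forming membrane, *Atg14* and *Pik3c3* were lower after feeding and *Becn1* was not called. *Atg14*, the subunit that directs the complex to autophagy, was 634 and 569 in fasted, 389 and 359 in sucrose-fed and 402 and 435 in fructose-fed control mice, and 482 and 498, 375 and 275, and 266 and 284 in mice labelled MED13-LKO. Every fed value was below every fasted value, by -0.66 ± 0.09 (adjusted p = 8.2e-04). *Pik3c3*, the catalytic subunit, was 383 and 349, 332 and 284, and 272 and 327 in control mice and 297 and 359, 256 and 238, and 229.9 and 204 in mice labelled MED13-LKO. Its fasted and fed values overlapped, and the averaged difference was -0.38 ± 0.09 (adjusted p = 0.015). *Becn1*, the scaffold of the complex, had 995 to 1466 over the 12 libraries and a difference of -0.06 ± 0.09.

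Among the cargo receptors, *Bnip3*, which sits on mitochondria, fell clearly and *Nbr1* by little. *Bnip3* was 8895 and 9838 in fasted, 7119 and 7921 in sucrose-fed and 6927 and 7337 in fructose-fed control mice, and 9132 and 10126, 6108 and 6586, and 6471 and 5347 in mice labelled MED13-LKO. No fed library reached a fasted one, and the difference was -0.50 ± 0.07 (adjusted p = 7.5e-04). Of its 31-base runs 57% occur in other genes, mostly the annotated gene AC160336.1, so the split of reads between them is uncertain. *Nbr1*, a receptor for ubiquitinated cargo and peroxisomes, was 5055 and 4833, 4630 and 4538, and 4435 and 4839 in control mice and 4830.2 and 4836, 4127 and 3773, and 4458 and 4277 in mice labelled MED13-LKO. Fed and fasted values overlapped by a margin of a few counts in fructose-fed control mice, and the difference was -0.16 ± 0.05 (adjusted p = 0.032).

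In the lysosome, *Ctsl*, *Lamp1* and *Lamp2* were lower after feeding. The cathepsin L gene *Ctsl* (chr13:64359337-64370890) was 13447 and 12714 in fasted, 9592 and 8014 in sucrose-fed and 8595 and 7736 in fructose-fed control mice. The mice labelled MED13-LKO had 7408 and 7939, 6013 and 6688, and 6901 and 6401. Fed values were below fasted values within each genotype, but fed control mice overlapped fasted mice labelled MED13-LKO, and the averaged difference was -0.43 ± 0.06 (adjusted p = 0.0014). *Lamp1* went from 12567 and 13424 in fasted control mice to 11275 and 10979.6 after sucrose and 10954 and 12016 after fructose, and from 11029 and 11684 to 10045 and 9722, and 10032 and 9711, in mice labelled MED13-LKO, a difference of -0.20 ± 0.05 (adjusted p = 0.013). *Lamp2*, whose splice form LAMP2A is the receptor of chaperone-mediated autophagy, was 18184 and 19698, 15497 and 17551, and 15603 and 16268 in control mice and 15907 and 15786, 13605 and 14214, and 14161 and 13659.9 in mice labelled MED13-LKO, a difference of -0.21 ± 0.05 (adjusted p = 0.017). In both genes every fed mouse was below the fasted mice of its own genotype. The gene-level values do not separate the splice forms of *Lamp2*. The other proteases were not called: *Ctsb* differed by -0.02 ± 0.04 and *Ctsd* by -0.10 ± 0.04.

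The remaining called genes of the feeding comparison act earlier. *Rb1cc1* encodes FIP200, the scaffold of the ULK complex, and was 1414 and 1349, 1482 and 1355, and 1182 and 1357 in control mice and 1720.1 and 1898, 1343 and 1258, and 1401 and 1155 in mice labelled MED13-LKO. Only the fasted mice labelled MED13-LKO stood above the rest, and the averaged difference was -0.27 ± 0.07 (adjusted p = 0.021). The lipid transfer gene *Atg2a* was 408 and 345, 283 and 267, and 304 and 369 in control mice and 426 and 359, 305 and 281, and 341 and 289.9 in the others, a difference of -0.33 ± 0.09 (adjusted p = 0.026). Its partner *Atg2b* was 537 and 559, 509.6 and 455, and 546 and 588, against 648 and 640.2, 504 and 429, and 492 and 553, a difference of -0.23 ± 0.07 (adjusted p = 0.039). For *Atg2a* and *Atg2b* fed and fasted values overlapped, and for *Atg2b* fructose-fed control mice were no lower than fasted ones. *Atg12*, the ubiquitin-like protein joined to ATG5, had -0.24 ± 0.07 (adjusted p = 0.032), and its values are given with the genotype comparison.

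**Figure D3:**
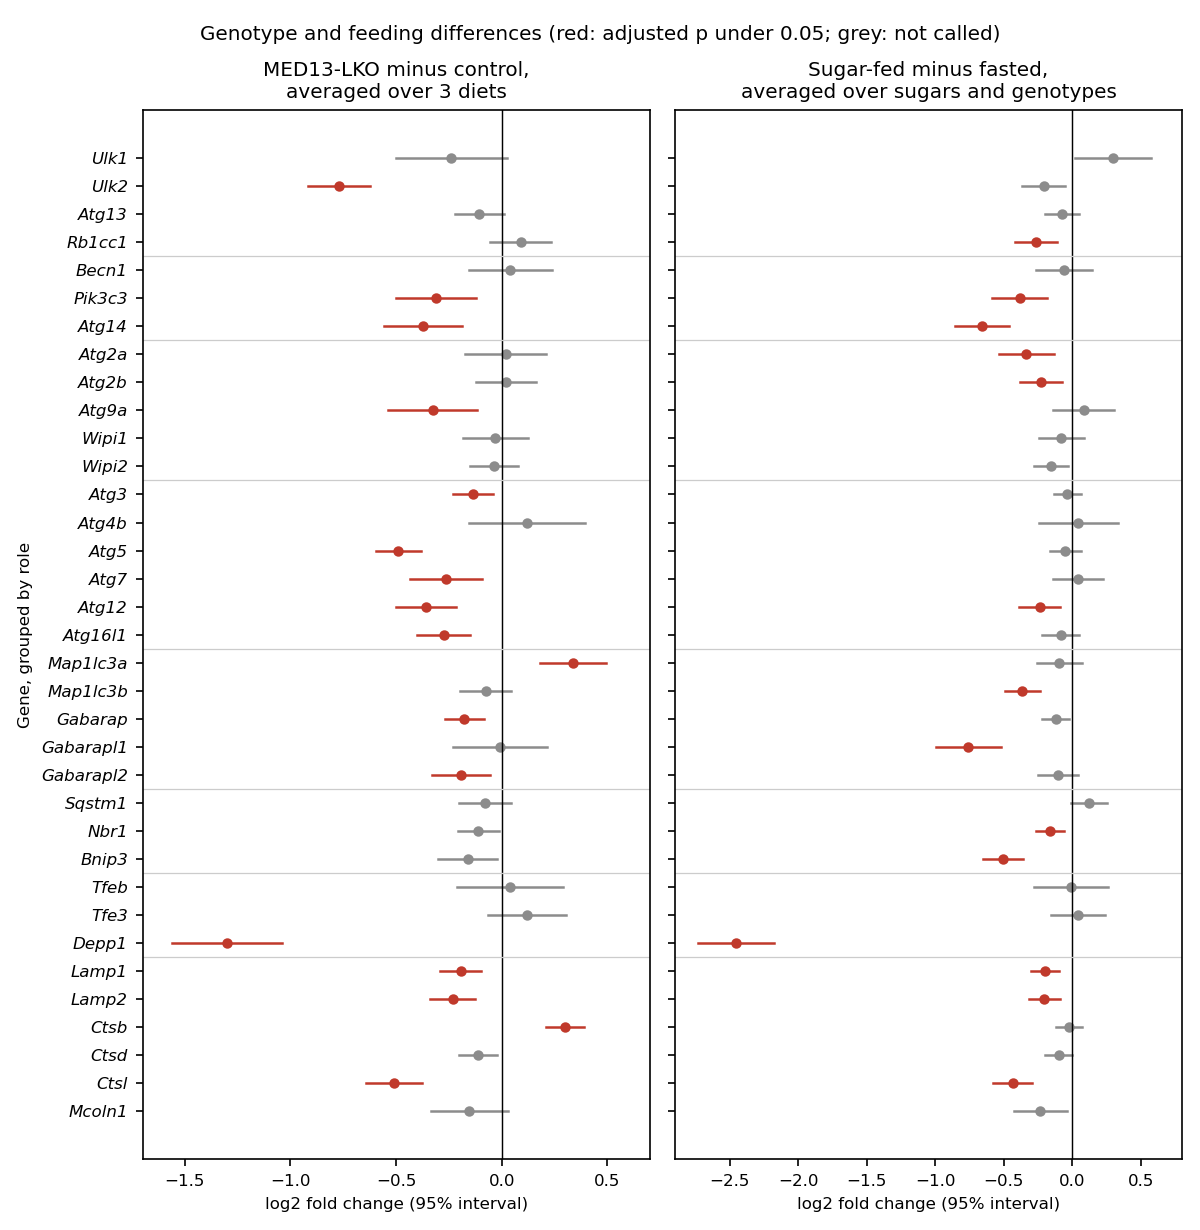
Log2 fold change of each gene with its 95% interval, for genotype averaged over the 3 diets (left) and for feeding averaged over sugars and genotypes (right); red marks an adjusted p under 0.05 and grey a gene not called. The red points lie left of 0 in the right panel, and on the left *Map1lc3a* and *Ctsb* are the red points right of 0.

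Of the 14 members lower after feeding, *Depp1*, *Gabarapl1*, *Atg14*, *Bnip3*, *Map1lc3b* and *Ctsl* stayed called under each alternative fitted to all groups. The count of 14 became 8 without replicate 2 of the fasted control mice, 8 without replicate 2 of the fasted mice labelled MED13-LKO, and 9 without either of the other 2 fasted mice. Feeding was also taken within each genotype, as a contrast of the same fit to all 12 libraries. In control mice 8 members were called, 7 lower and 1 higher, where 10.6% of all genes were called and 4.99% were lower. In mice labelled MED13-LKO 8 were called, all lower (9.37% of all genes called and 5.42% lower). *Depp1*, *Gabarapl1*, *Atg14*, *Bnip3* and *Map1lc3b* were called lower within both genotypes. Split by sugar, 6 members were called for sucrose in control mice, 5 of them lower, where 8.57% of all genes were called and 3.72% were lower. For fructose in control mice 4 members were called, all lower (5.6% and 2.81% of all genes). In mice labelled MED13-LKO 7 members were lower after sucrose (5.71% of all genes called and 3.48% lower) and 7 after fructose (6.53% and 3.58%). Fructose against sucrose gave 0 called members in either genotype by limma, with 3 members at an unadjusted p under 0.05 in each (background 8.58% in control mice and 7.69% in mice labelled MED13-LKO), and 0.0404% of all genes were called in each.

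*Sqstm1*, which encodes the receptor p62, was the single member called higher after feeding, in sucrose-fed control mice and in control mice with the sugars averaged. Its values were 6158 and 5589 in fasted, 7957 and 7922 in sucrose-fed and 6777 and 6778 in fructose-fed control mice, and 6089 and 7343, 5970.3 and 6373, and 6669 and 6302 in mice labelled MED13-LKO. Fed control mice were all above fasted control mice, by 0.44 ± 0.09 for sucrose (adjusted p = 0.022), while fed and fasted mice labelled MED13-LKO overlapped. The difference between genotypes in the sucrose response was -0.55 ± 0.13 and was not called (adjusted p = 0.292).

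Genotype, averaged over the 3 diets, went with a difference in 17 of the 35 members (48.6%), of which 15 were lower and 2 higher in the libraries labelled MED13-LKO. Over all genes tested 25.3% were called, 13.2% lower and 12.1% higher. The median log2 difference was -0.14 over the members and 0.01 over all genes, and 26 of the 35 were below 0. In 5 members (14.3%) the 6 libraries labelled MED13-LKO did not overlap the 6 control libraries, *Ulk2*, *Atg5* and *Atg7* being lower and *Map1lc3a* and *Ctsb* higher, and 8.85% of all genes showed no overlap, 4.93% being lower and 3.92% higher. Of the 24 members that share under 10% of their 31-base runs with another gene, 13 were called. Hepatocyte markers moved the same way as most of these members, 4 of 6 being lower with a median of -0.40, and 5 of 7 endothelial markers were higher. All 3 erythroid markers were lower, with a median of -0.62 and sums of 5361 to 9420 in control and 2959.7 to 6717 in mice labelled MED13-LKO. Of the other cell types, 2 of 7 stellate markers and 1 of 3 cholangiocyte markers were lower, the 1 lymphocyte marker tested was higher, and the 1 neutrophil marker tested was not called. The part of these markers in the members' differences was not tested.

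*Ulk2* (chr11:61775649-61855073), a kinase that with its relative *Ulk1* starts autophagy, had the smallest adjusted p. Control mice had 1471 and 1735 fasted, 1295 and 1605 after sucrose and 1528 and 1572 after fructose. Mice labelled MED13-LKO had 1018 and 1063, 912 and 837, and 795 and 789. The highest of the latter was below the lowest control value, and the difference was -0.77 ± 0.07 (adjusted p = 3.8e-05), called in each diet: -0.62 ± 0.11 fasted, -0.72 ± 0.11 after sucrose and -0.97 ± 0.11 after fructose. *Ulk1* ranged from 1118 to 2022 over the 12 libraries, with a difference of -0.24 ± 0.12 that was not called (adjusted p = 0.173). *Ulk2* lies on chromosome 11, 24.4 Mb from the targeted gene *Med13*. *Gabarap*, *Becn1*, *Nbr1*, *Wipi1* and *Sqstm1* lie on that chromosome too, at 14.9 to 36.1 Mb, and of these 5 *Gabarap* was called.

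**Figure D4:**
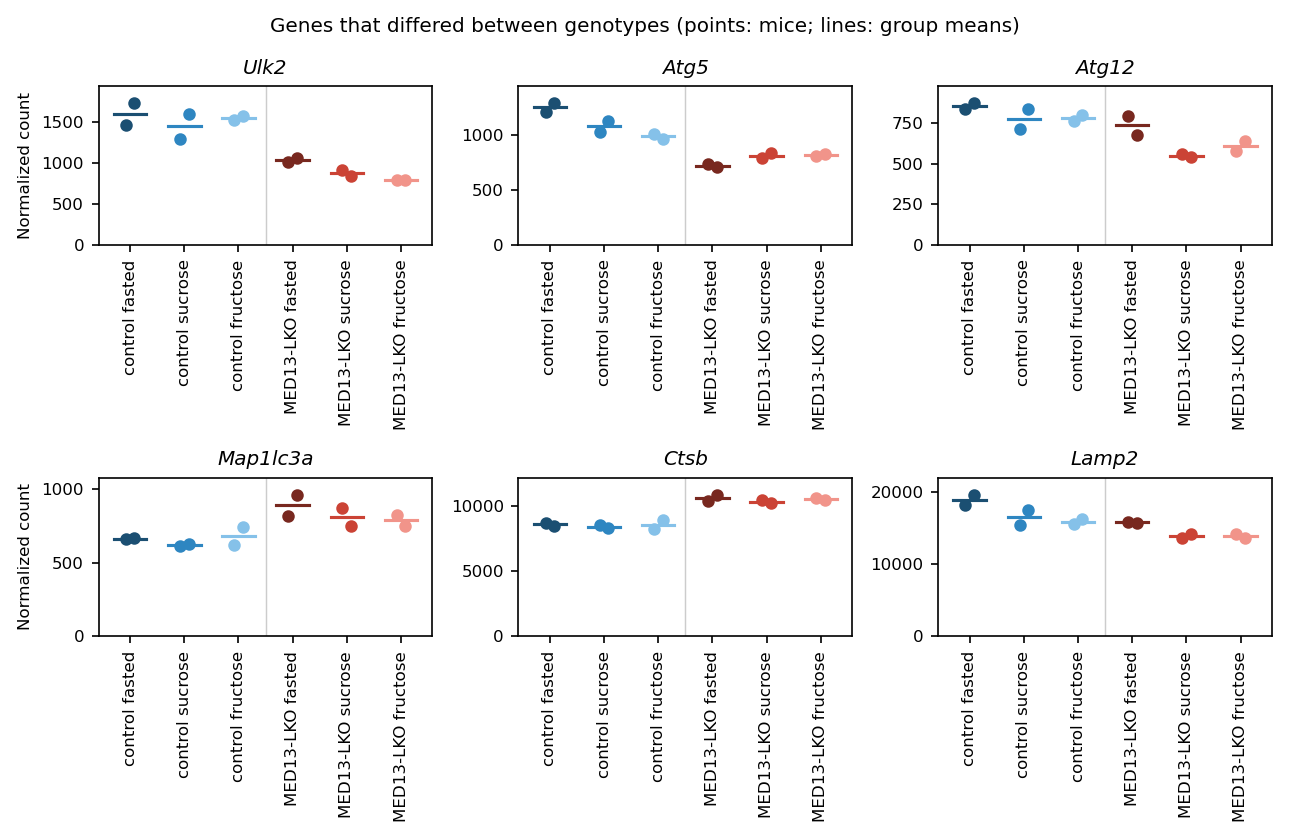
Normalized count in each mouse (points) and group mean (lines) of 6 genes that differed between the genotypes; each vertical axis starts at 0 and the grey line divides control from MED13-LKO libraries. *Ulk2* and *Atg5* are lower and *Map1lc3a* and *Ctsb* higher in all 6 MED13-LKO mice, while *Atg12* and *Lamp2* overlap between genotypes.

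The conjugation enzymes were the group with most calls, 5 of 6 being lower. *Atg5* (chr10:44268358-44364291), part of the complex that places LC3 on membranes, was 1210.4 and 1289.5 in fasted, 1025 and 1128 in sucrose-fed and 1010 and 962 in fructose-fed control mice, and 733 and 707, 786 and 833, and 812 and 829 in mice labelled MED13-LKO. The genotypes did not overlap, and the difference was -0.49 ± 0.05 (adjusted p = 9.3e-05). By diet it was -0.79 ± 0.08 in fasted mice, -0.41 ± 0.08 after sucrose and -0.26 ± 0.08 after fructose, and the last was not called (adjusted p = 0.0905). *Atg12* was 833 and 873, 715 and 836, and 763 and 800.2 in control mice and 793 and 678, 558 and 540.3, and 575 and 642 in the others, a difference of -0.36 ± 0.06 (adjusted p = 0.0032), and the overlap came from fasted mice labelled MED13-LKO. *Atg16l1*, the third part of that complex, was 904 and 838, 672 and 783, and 919 and 849.8, against 670 and 722, 643 and 652, and 714 and 684, a difference of -0.28 ± 0.06 (adjusted p = 0.0066). Here a sucrose-fed control mouse with 672 lay within the range of the mice labelled MED13-LKO.

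*Atg7*, the activating enzyme of both conjugation reactions, was 732 and 737, 751 and 754, and 689 and 746 in control mice and 667 and 519.6, 657 and 581, and 688 and 577 in the others, a difference of -0.26 ± 0.08 (adjusted p = 0.031). Its groups did not overlap, but the highest value labelled MED13-LKO and the lowest control value were 688 and 689. *Atg3*, which transfers LC3 to lipid, was 1939 and 2045, 1809 and 1914, and 1801 and 1767, against 1706 and 1620.5, 1759 and 1865, and 1682 and 1616. That difference, -0.14 ± 0.04 (adjusted p = 0.04), was the smallest of those called. When each of the 12 libraries was left out in turn, the call of *Atg7* was lost in 8 cases and that of *Atg3* in 10. The adjusted p by limma rose to 0.0849 and 0.109. The call of *Atg3* was also lost after rescaling to equal 75th percentiles and with a replicate block. The protease *Atg4b*, which primes and recycles LC3, was 384 to 655 over the libraries and differed by 0.12 ± 0.12.

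The LC3 family split by genotype. *Map1lc3a* was 659 and 669, 612 and 628, and 621 and 741 in control mice and 817 and 963, 869 and 749.9, and 827 and 747 in mice labelled MED13-LKO, higher by 0.34 ± 0.07 (adjusted p = 0.0069) with no overlap. *Gabarap* was 3744 and 3754, 3068 and 3319, and 3406 and 3148, against 2965 and 3123, 2953 and 2895, and 3050.2 and 3043, lower by -0.18 ± 0.04 (adjusted p = 0.012). *Gabarapl2* was 1368 and 1333, 1139.8 and 1319, and 1307 and 1208, against 1259.7 and 1078, 1008 and 1128, and 1112 and 1124, lower by -0.19 ± 0.06 (adjusted p = 0.043). *Gabarap* overlapped in 1 library of each genotype and *Gabarapl2* in more. The call of *Gabarapl2* was lost after rescaling to equal 75th percentiles and with a replicate block. It was also lost in 8 of the 12 fits that left out 1 library (limma, adjusted p up to 0.117). The 2 members with the clearest feeding differences in this family, *Gabarapl1* and *Map1lc3b*, were not called by genotype (-0.01 ± 0.10 and -0.08 ± 0.05).

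Among the lysosomal genes, the proteases went in different directions. *Ctsb* (chr14:63122462-63145923), cathepsin B, was 8652 and 8486, 8515 and 8279.6, and 8204 and 8883 in control mice and 10366 and 10862, 10451 and 10178, and 10564 and 10427 in mice labelled MED13-LKO. It was higher by 0.30 ± 0.04 (adjusted p = 5.8e-04), in each diet and with no overlap. *Ctsl* was lower, by -0.51 ± 0.06 (adjusted p = 2.7e-04), and the difference was -0.77 ± 0.10 in fasted, -0.47 ± 0.10 in sucrose-fed and -0.29 ± 0.10 in fructose-fed mice, the last not called (adjusted p = 0.121). *Ctsd*, cathepsin D, had 5987 to 7442 and differed by -0.11 ± 0.04 (adjusted p = 0.0682). *Lamp1* was lower by -0.19 ± 0.04 (adjusted p = 0.00975) and *Lamp2* by -0.23 ± 0.05 (adjusted p = 0.0062). Kupffer cells also express cathepsins, and of their 9 markers *Cd5l* (0.63 ± 0.08) and *Marco* (1.22 ± 0.14) were higher in the libraries labelled MED13-LKO and none lower. The part of Kupffer cell RNA in the *Ctsb* difference was not tested. Both *Ctsb* (13%) and *Ctsl* (28.2%) share 31-base runs with other genes.

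*Depp1* also had less RNA in mice labelled MED13-LKO, by -1.30 ± 0.12 (adjusted p = 4.7e-05). Within each diet the genotypes did not overlap, and the difference was -1.15 ± 0.20 in fasted, -2.14 ± 0.20 in sucrose-fed and -0.61 ± 0.20 in fructose-fed mice, the last not called (adjusted p = 0.102). *Tfeb* and *Tfe3*, transcription factors of lysosomal genes, ranged from 148 to 204 and from 314 to 520.1, and were called in no comparison of genotype or feeding. Their genotype differences were 0.04 ± 0.11 and 0.12 ± 0.08.

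In the first steps of the pathway, *Atg14* was lower by -0.37 ± 0.08 (adjusted p = 0.0093) and *Pik3c3* by -0.31 ± 0.09 (adjusted p = 0.025). *Atg9a*, a lipid scramblase carried on vesicles, was 509.6 and 593, 536 and 638, and 552 and 434 in control mice and 435 and 354, 439.8 and 447, and 415 and 508 in the others, a difference of -0.33 ± 0.09 (adjusted p = 0.031). Control and MED13-LKO values of *Atg9a* overlapped, and 32.4% of its 31-base runs occur in other genes. The calls of *Pik3c3* and *Atg9a* were lost in 6 and 7 of the 12 fits that left out 1 library (limma, adjusted p up to 0.066 and 0.0826). *Atg13*, a ULK complex subunit, was called lower only in sucrose-fed mice: it was 1007 and 1007, 1074 and 1082, and 906 and 1051 in control mice and 1036 and 1017, 845 and 775, and 998 and 1051 in mice labelled MED13-LKO, and the sucrose difference was -0.41 ± 0.09 (adjusted p = 0.028).

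By diet, 6 members were called by genotype in fasted mice, 5 of them lower, where 8.98% of all genes were called and 4.86% were lower. In sucrose-fed mice 7 were called and 6 were lower (6.03% and 3.33% of all genes), and in fructose-fed mice 3 were called and 2 were lower (7.69% and 3.95%). *Ulk2* and *Ctsb* were called in all 3 diets. The count in fructose-fed mice was near the background share.

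The genotype and feeding differences fell together on 7 members (20%), lower in both averaged comparisons: *Pik3c3*, *Atg14*, *Atg12*, *Depp1*, *Lamp1*, *Lamp2* and *Ctsl*. Of all genes tested 2.35% were lower in both. With 15 of the 35 members lower by genotype and 14 by feeding, some overlap would arise without a link, and whether 7 exceeds it was not tested. In these 7 the fasted control mice had the highest group mean and a fed group labelled MED13-LKO the lowest. Choosing members lower in both comparisons favours that order. *Depp1*, *Atg14* and *Ctsl* kept both calls under each alternative fitted to all groups. When single libraries were left out in turn, the feeding call was lost in 7 cases for *Atg12*, 3 for *Lamp2* and 2 each for *Lamp1* and *Pik3c3*. *Pik3c3* also lost its genotype call in 6 cases. *Ulk2*, *Atg5* and *Ctsb* differed by genotype with feeding differences of -0.21 ± 0.07, -0.05 ± 0.05 and -0.02 ± 0.04 that were not called, and *Gabarapl1*, *Map1lc3b* and *Bnip3* the reverse.

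**Figure D5:**
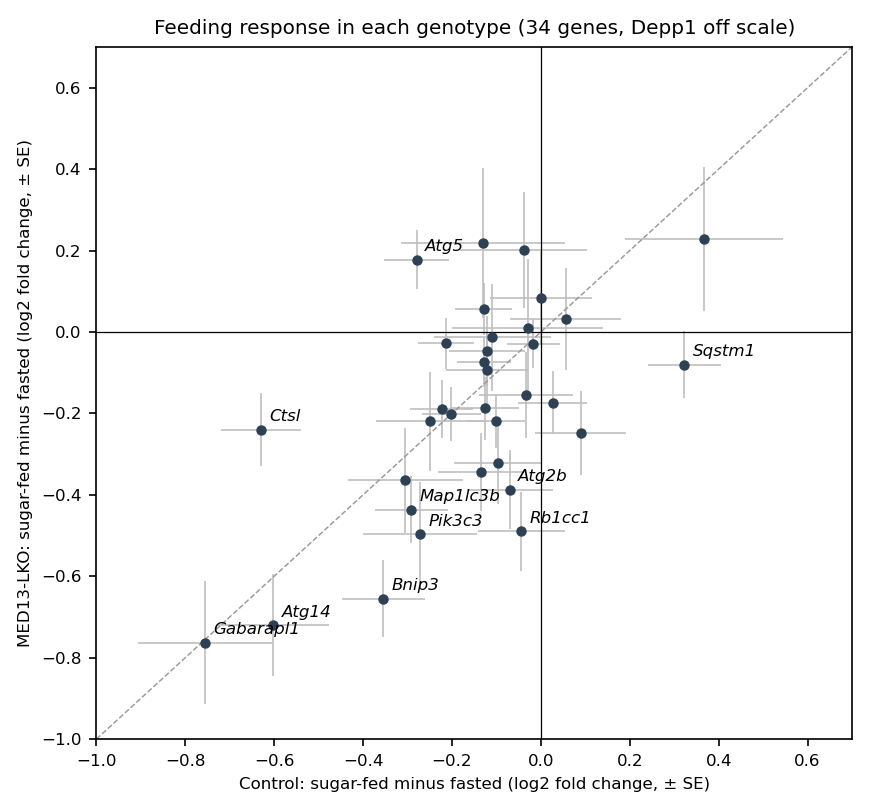
Feeding response of 34 genes, averaged over both sugars, in control (horizontal) and MED13-LKO mice (vertical), as log2 fold changes with bars of 1 SE; named genes were called in at least 1 genotype, the dashed line marks equal responses, and *Depp1* lies off the scale. *Gabarapl1* and *Atg14* lie near the dashed line, *Ctsl* and *Atg5* above it and *Rb1cc1* and *Sqstm1* below it.

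Whether the feeding response differed between genotypes was tested as an interaction, and 0 members were called by limma, with both sugars averaged or with either alone (0.0404%, 0.146% and 0.0243% of all genes). With the sugars averaged, 7 of the 35 members (20%) had an unadjusted p under 0.05, against 9.49% of all genes. For sucrose alone 5 members had such a p (8.53% of all genes) and for fructose alone 4 (9.46% of all genes). The smallest adjusted p with the sugars averaged was 0.195, that of *Atg5*, where fed control mice were all below and fed mice labelled MED13-LKO all above their fasted counterparts. In *Rb1cc1* the fasted to fed difference averaged over sugars was -0.04 ± 0.10 in control mice and -0.49 ± 0.10 in mice labelled MED13-LKO, and the interaction of -0.45 ± 0.14 was not called (adjusted p = 0.337). In *Ctsl* it was -0.63 ± 0.09 and -0.24 ± 0.09, with an interaction of 0.39 ± 0.13 (adjusted p = 0.361). The difference of *Gabarapl1* between genotypes was -0.01 ± 0.21. Fed mice all moved in opposite directions in the genotypes, without overlap with their fasted counterparts, for 1 member with the sugars averaged, 4 with sucrose and 3 with fructose, against 0.946%, 5.13% and 5.08% of all genes.

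Of the 9 members called in no comparison, *Ulk1*, *Becn1*, *Atg4b*, *Ctsd*, *Tfeb* and *Tfe3* are given above. *Wipi1* and *Wipi2*, which read the PI3P signal on the membrane, ranged from 245 to 339 and from 898 to 1152, with feeding differences of -0.08 ± 0.07 and -0.16 ± 0.05. *Mcoln1*, a calcium channel of the lysosome, ranged from 436 to 677 and differed by -0.23 ± 0.09 with feeding (adjusted p = 0.0811) and by -0.15 ± 0.08 with genotype (adjusted p = 0.199). These intervals allow differences of the size called in other members, so no equality is shown.

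Other genes of the same pathways were counted from further lists, to be read against the 11% of all genes lower and the 10.7% higher after feeding. These lists too were chosen with earlier results of these data known. After feeding, 16 of 42 lysosomal hydrolases were lower and 1 higher, 7 of 18 genes of selective autophagy lower and none higher, 7 of 30 lysosomal membrane and sorting genes lower and 2 higher, and 7 of 31 genes of mTORC1 and lysosomal nutrient sensing lower and 2 higher. Of 13 transcription factors of the lysosome 5 were lower and 1 higher, while 1 of 23 early autophagy genes and 1 of 16 V-ATPase subunits were lower, shares below that of all genes. The largest falls were those of *Ddit4*, an mTORC1 inhibitor (-2.87 ± 0.25), *Retreg1*, a receptor for autophagy of the endoplasmic reticulum (-1.81 ± 0.35), and *Foxo1* (-1.35 ± 0.14). *Foxo1*, a factor known to induce *Depp1*, lay between 1355 and 1704 in fasted and between 457 and 919 in fed mice, with no overlap.

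By genotype these lists were mixed, against 13.2% of all genes lower and 12.1% higher. In the libraries labelled MED13-LKO 13 of the 42 hydrolases were higher, led by *Arsa* (0.67 ± 0.08), and 4 were lower, led by *Ctsz* (-0.44 ± 0.05), while of the V-ATPase subunits, which acidify the lysosome, 5 of 16 were lower and 1 higher. Early autophagy genes numbered 6 of 23 lower, with *Vmp1* at -0.76 ± 0.12, and 3 higher, with *Tecpr1* at 0.67 ± 0.14. Selective autophagy had 3 of 18 lower and 1 higher, nutrient sensing 2 of 31 lower (*Deptor*, -0.58 ± 0.05, and *Lamtor4*) and 1 higher, membrane and sorting genes 4 and 4 of 30 (with *Laptm4b* at 0.79 ± 0.08), and transcription factors 2 of 13 lower and 4 higher. The counts of selective autophagy and of membrane and sorting genes were near the shares of all genes, and those of nutrient sensing below them. Averaged over diets, the hydrolases thus had more called higher than lower, and the members of the conjugation system none higher. By diet, 6 hydrolases were higher and 2 lower in fasted mice, 1 and 1 after sucrose, and 3 and 1 after fructose. Of all genes 8.98%, 6.03% and 7.69% were called in these diets, in either direction. No V-ATPase subunit was called lower in any single diet. The part of Kupffer and endothelial cell RNA, some of whose markers were higher, was not tested.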

How the data were processed

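Total liver RNA of 12 mice was sequenced as paired reads. Per the submitters' processing notes and the study's methods, reads were trimmed with Trim Galore 0.6.5, kallisto 0.46.0 assigned them to mm10 transcripts, and estimated counts were summed per gene and divided by DESeq2 1.24.0 size factors. The deposited values are thus a normalized signal per gene and not raw counts, as the authors made them. Low values were whole multiples of 1 step per library in 87.3 to 99.0% of cases for genes with 1 annotated transcript, but in 51.9 to 58.9% over all genes (within 0.05 of a multiple, values below 20), so whole reads were not recovered and no count model was used. Symbols were matched for 16212 of 16346 identifiers.

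Normalized counts were transformed as log2(value + 1), a scale that understates changes of low genes, and genes with a mean of at least 10 were fitted with limma 3.58.1 (R 4.3.3): 6 group means, empirical Bayes with a trend in the mean, Benjamini-Hochberg over 12366 genes, threshold 0.05, for 14 contrasts. Contrasts that share fasted groups or controls are not independent. The pipeline was tested on simulated data. Members and lists were chosen with earlier results of these data known. Members called in any contrast of genotype or feeding are given with every library and the others by ranges, and from each further list counts and the called genes that changed most, of which 1 is not reported here. Shared 31-base runs were counted in annotated transcripts on either strand. Alternatives were pseudocounts of 0.1 and 10, no filter, rescaling to equal 75th percentiles, a replicate block, the compared groups alone and leaving out each library. Feeding within 1 genotype, a contrast of the same fit, was added after seeing that *Med13* was not lower. Replicate numbers were those of the sample titles, and the column names of the deposited values number the fed mice differently. By title number, the deviations of same-numbered mice correlated between -0.14 and 0.08 over 15 pairs of groups, so these numbers showed no pairing. Pairing by the column numbers was not tested and none was assumed. Replicates were not duplicates of each other. With 2 mice a group, p-values rest on a spread pooled over groups.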

Additional observations from a re-analysis of the deposited data

Results flagged for a closer look

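In some members every fed mouse of 1 genotype was above, and every fed mouse of the other below, the fasted mice of its own genotype. With both sugars averaged this held for *Atg5*, lower after feeding in control mice and higher in mice labelled MED13-LKO, with an interaction of 0.46 (log2; limma, adjusted p = 0.195), and it held for 0.946% of all genes. With sucrose alone it held for *Atg5* (interaction 0.38, adjusted p = 0.413) and *Atg3* (0.22, adjusted p = 0.607), both lower in control and higher in mice labelled MED13-LKO, and in the opposite direction for *Atg13* (-0.44, adjusted p = 0.386) and *Tfe3* (-0.31, adjusted p = 0.736), against 5.13% of all genes. With fructose alone it held for *Atg5* (0.53, adjusted p = 0.239) and *Atg4b* (0.46, adjusted p = 0.667), and in the opposite direction for *Wipi1* (-0.39, adjusted p = 0.515), against 5.08% of all genes. The differences between genotypes were tested by these interaction terms, and none was called.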

How the results depend on the processing

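Of 71 calls of a member in a contrast, 26 were kept under every alternative other than feeding within 1 genotype, 45 were lost under at least 1 and none reversed. Leaving out 1 library gave 13 to 15 members called by genotype averaged over diets, 2 to 8 in fasted, 1 to 7 in sucrose-fed and 1 to 3 in fructose-fed mice. It gave 8 to 14 for feeding averaged, 2 to 7 for sucrose and 2 to 4 for fructose in control mice, and 1 to 9 and 1 to 7 in mice labelled MED13-LKO. With only the compared groups, 2 members were called by genotype after sucrose, 1 by genotype after fructose, 1 for fructose in control mice and 3 for fructose in mice labelled MED13-LKO. Feeding averaged over sugars, as contrasts within the same fit and not refits, called 8 members in control mice and 8 in mice labelled MED13-LKO. With a replicate block, taken from the numbers in the sample titles, 2 members were called for fructose in control mice and 10 of the 71 calls were lost. The labels do not say that mice with the same number belong together. Rescaling to equal 75th percentiles lost 4 calls. The causes of these changes were not tested. Depth in reads is known only as an estimate. With 2 mice per group, calls within 1 diet were less stable than averaged ones: of the 40 calls there, 32 were lost in some alternative.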
